A study of Mus musculus with 6 samples.

Results

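The genes described here are the platelet-derived growth factor (PDGF) ligands Pdgfa, Pdgfb, Pdgfc and Pdgfd, their receptors Pdgfra and Pdgfrb, and Cspg4, Mcam, Rgs5 and Kcnj8, which are commonly used to mark pericytes. Of these 10 genes, taken by symbol from the GENCODE M21 mouse annotation, 9 had a row in the deposited table of 29616 genes. Kcnj8 had no row and was not analysed here. The lowest total of any gene in that table was 3 reads over the 6 libraries. Bone cells of C57BL/6 mice were sequenced in 3 control libraries and 3 libraries from dexamethasone-treated mice. Per the study's methods the treated mice got dexamethasone, a synthetic glucocorticoid, from 8 weeks of age, at a dose of 0.08 µg/g each day over 4 weeks. The labels give the other group only as control. The methods describe cells released with collagenase from flushed femurs, then fixed, permeabilized and sorted for Osteocalcin protein, whereas the labels say only bone cells. Neither the labels nor the methods say whether a library came from 1 mouse or several. The p-values given below therefore measure the spread between these libraries, which the test in part shares across genes.

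PDGFs are dimeric growth factors that act on mesenchymal cells through a pair of receptor tyrosine kinases. PDGF-A binds PDGF receptor alpha, PDGF-B binds both receptors, and PDGF-C and PDGF-D are secreted in a latent form and act mainly on receptor alpha and receptor beta, respectively, after a protease has removed their CUB domain. Endothelial PDGF-B recruits pericytes, which carry receptor beta, to new vessels, and receptor alpha marks many stromal progenitors of bone.

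Depth was 72596611 to 89910728 recovered reads per library, and 100% of the deposited values were whole multiples of the value of 1 read, within 0.01 read. Bulk RNA cannot tell fewer cells of a type from less RNA per cell. The transcript of Osteocalcin itself, Bglap, had 98.2 to 122 normalized counts in the control libraries and 9.54 to 15.1 in the dexamethasone libraries. Among the other osteoblast genes, Phex and Alpl (named after their values were seen) averaged 185 and 321 in the controls. Runx2 and Col1a1 averaged 15301 and 961920 there. The endothelial-defining genes Cdh5 and Tie1 had at most 3 reads in every library. Pairs of libraries within a group differed by more than counting noise (chi-square over degrees of freedom, 3.52 to 29.6). Dexamethasone replicate 1 had the highest dexamethasone value for 7 of the 9 genes, and for 47.8% of all tested genes.

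The promoter windows of Pdgfra, Pdgfc and Mcam are shown because these genes were among those that differed most between the groups. Each is the 250 bases before the RefSeq transcription start on build GRCm38.p6, written 5′ to 3′ on the strand of the gene, with GC boxes (GGGCGG on either strand, so also CCGCCC) in capitals. Pdgfra lies at chr5:75152001-75152250 on the plus strand, Pdgfc at chr3:81036166-81036415 on the plus strand, and Mcam at chr9:44134408-44134657 on the plus strand.
Pdgfra: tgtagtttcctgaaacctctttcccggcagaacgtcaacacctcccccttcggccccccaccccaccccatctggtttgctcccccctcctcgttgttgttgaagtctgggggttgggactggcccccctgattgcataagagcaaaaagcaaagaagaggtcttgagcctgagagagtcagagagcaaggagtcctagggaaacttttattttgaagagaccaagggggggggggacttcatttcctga
Pdgfc: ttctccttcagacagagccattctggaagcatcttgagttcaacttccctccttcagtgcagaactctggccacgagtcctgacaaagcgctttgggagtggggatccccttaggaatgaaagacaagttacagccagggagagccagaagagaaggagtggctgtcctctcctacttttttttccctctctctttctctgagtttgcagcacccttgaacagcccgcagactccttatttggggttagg
Mcam: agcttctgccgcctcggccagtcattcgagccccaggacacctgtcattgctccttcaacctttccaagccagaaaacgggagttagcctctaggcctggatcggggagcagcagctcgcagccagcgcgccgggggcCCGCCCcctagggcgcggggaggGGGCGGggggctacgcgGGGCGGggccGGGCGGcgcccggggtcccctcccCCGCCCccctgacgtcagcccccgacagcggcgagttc

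The Mcam window held 5 GC boxes and a GC content of 73.6%, whereas the Pdgfra and Pdgfc windows held none, at 54.4% and 50.8%. Across 32851 windows of this length, 32.7% held a GC box and the median GC content was 52.4%. Windows of 8 of the 10 genes were searched here, with 2 starts for Pdgfa. Pdgfb and Pdgfrb were not among them. Of the 9 windows searched, 4 held a GC box. The glucocorticoid receptor recognizes a pair of inverted elements, AGAACA and TGTTCT, 3 bases apart. A single such element, on either strand, was in 0 of the 9 windows and in 16.1% of all windows. The complete pair was in 0 of the 9 and in 0.00913% of all. A TATA box (TATAAA, either strand) was found in the Pdgfd window, and in 12.4% of all windows. A complete pair also counts as a single element. These are matches of letters near the start only and say nothing about binding.

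Values are normalized counts, that is, reads divided by 1 size factor per library. Log2 fold changes are differences of log2(normalized count + 1), dexamethasone minus control, tested with limma and Benjamini-Hochberg adjustment over 17442 genes with a mean of at least 10. A gene counted as differentially expressed when its adjusted p-value was below 0.05 and its log2 fold change (log2FC) was 1 or more, up or down. All 9 listed genes passed the filter. Of these 9, 4 were differentially expressed, against 22.3% of all tested genes. Pdgfra was higher, against 11.7% of tested genes in that direction, and Pdgfb, Pdgfc and Mcam were lower, against 10.6%. At an adjusted p-value under 0.05 alone 7 of the 9 differed, against 72.5% of all tested genes. Among these, 3 were higher and 4 lower, against 37.2% and 35.2%. The values of the control and dexamethasone libraries did not overlap for 8 of the 9 genes, against 74.7% of all tested genes. The median log2FC was -0.08 for the 9 genes and 0.001 for all tested genes.

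**Figure D1:**
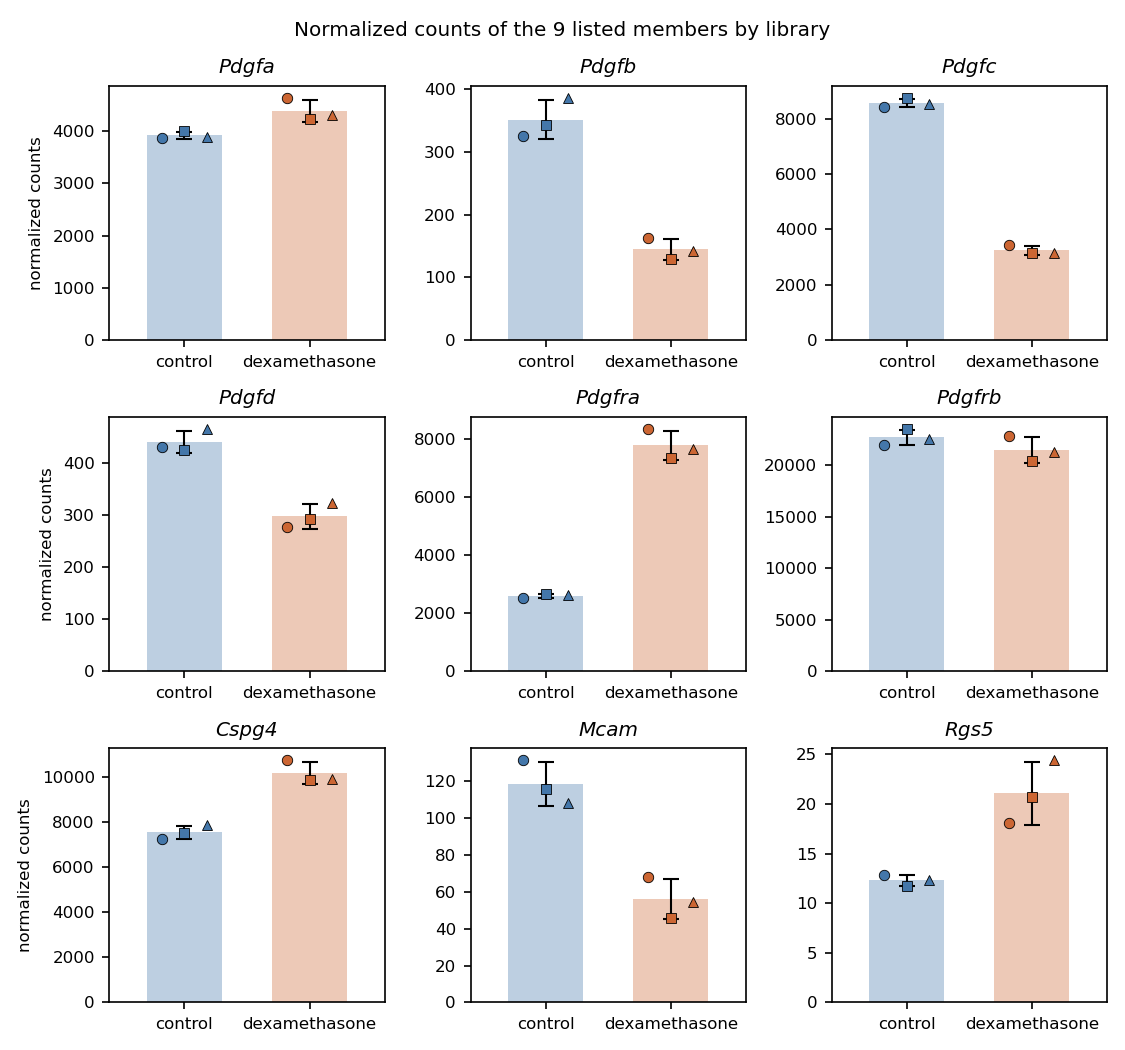
Normalized counts (y axis, from 0) of the 9 genes in control and dexamethasone libraries. Bars are means, whiskers SD (n = 3), and circles, squares and triangles are replicates 1, 2 and 3. The groups overlap for Pdgfrb, Pdgfra lies at 2537 to 2649 in controls and 7352 to 8339 with dexamethasone, and Pdgfc falls from 8566 to 3245 on average.

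Among the ligands, Pdgfc, the latent ligand of receptor alpha, showed the largest fall and Pdgfa a small rise. The control libraries, in replicate order, held 8433, 8737 and 8528 normalized counts of Pdgfc, and the dexamethasone libraries 3437, 3144 and 3154. Every dexamethasone library was below every control library. Means were 8566 ± 156 and 3245 ± 167 (SD, n = 3 each), which is a log2FC of -1.40 (SE 0.0396, limma adjusted p = 2.38e-20).

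Pdgfb, the ligand through which endothelium recruits pericytes, had 325, 342 and 385 normalized counts in the control libraries and 163, 130 and 142 in the dexamethasone libraries. All 3 dexamethasone values were under the lowest control value. Its log2FC was -1.27 (95% interval -1.499 to -1.046, limma adjusted p = 1.53e-10), from 119 to 438 reads per library. Pdgfd, the latent ligand of receptor beta, had 431, 425 and 464 normalized counts in controls and 276, 291 and 323 with dexamethasone. The groups did not overlap, and Pdgfd fell by 0.57 on the log2 scale (limma adjusted p = 1.99e-06), short of the cut-off of 1.

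Pdgfa, the ligand specific to receptor alpha, had 3859, 3986 and 3887 normalized counts in controls and 4623, 4223 and 4309 with dexamethasone. The dexamethasone libraries were all higher, by 1.12-fold on average, and Pdgfa rose by 0.16 on the log2 scale (95% interval 0.08 to 0.25, limma adjusted p = 0.000787), a direction that flipped to -0.002 after quantile normalization. With all libraries rescaled to the same total its log2FC was 0.05 (limma adjusted p = 0.159). Its adjusted p-value over the alternatives ran from 0.000224 to 0.961. In M21, 26.1% of the exon bases of Pdgfa are shared with 6330403L08Rik on the opposite strand. That gene had 465 to 549 normalized counts in the controls and 314 to 324 with dexamethasone, lower where Pdgfa was higher. The strand setting of the count is not given in the sources used here, so reads of the pair cannot be told apart.

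**Figure D2:**
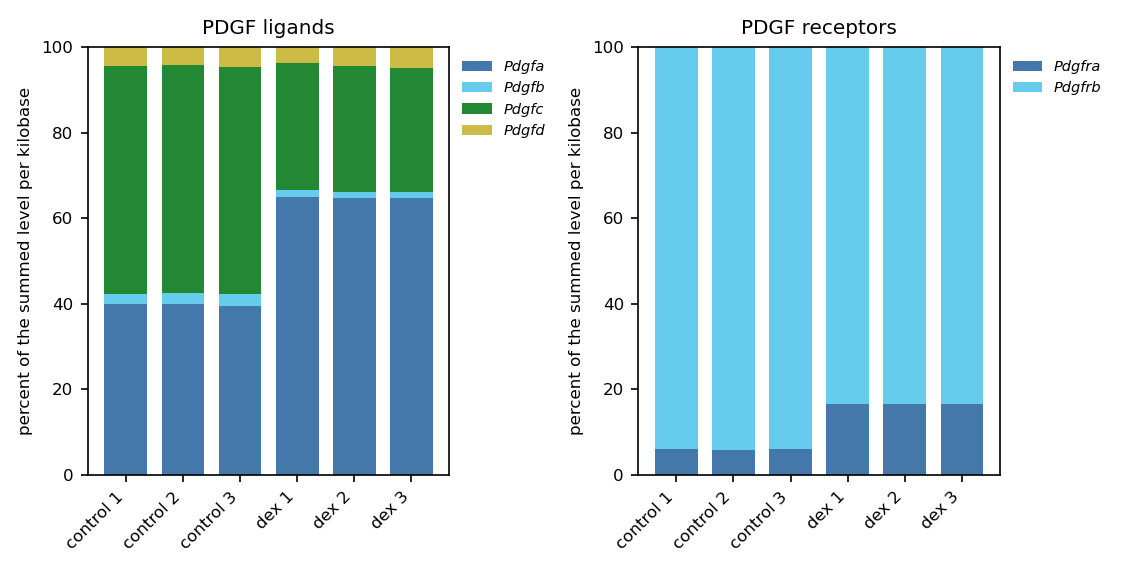
Share (y axis, percent) of each PDGF ligand (left) and receptor (right) in the summed level per kilobase of its family, by library (x axis; dex, dexamethasone). Pdgfa makes up 39.4% to 39.8% of the ligands in controls and 64.6% to 64.9% with dexamethasone, and Pdgfra 5.80% to 5.95% and 16.4% to 16.6% of the receptors.

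To compare levels between genes, normalized counts were divided by the length of all exons of the gene in M21, in kilobases. On this scale Pdgfc was the most abundant ligand in the controls and Pdgfa with dexamethasone. Pdgfc made up 53.3% ± 0.23 (SD, n = 3) of the summed ligand level in controls and 29.3% ± 0.32 (SD, n = 3) with dexamethasone. For Pdgfa the shares were 39.7% ± 0.22 (SD, n = 3) and 64.7% ± 0.15 (SD, n = 3). Pdgfb stayed the least abundant ligand at 2.67% and 1.6%, and Pdgfd had 4.41% and 4.34%, with overlapping libraries. The summed ligand level was 3109 to 3212 per kilobase in controls and 2095 to 2284 with dexamethasone. Of the pair, Pdgfc moved more, from 1683 to 638 per kilobase, while Pdgfa went from 1254 to 1406.

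Of the receptors, Pdgfra rose and Pdgfrb did not pass the test. Pdgfra had 2537, 2649 and 2614 normalized counts in controls and 8339, 7352 and 7669 with dexamethasone. The lowest dexamethasone library was well above the highest control library, and the means of 2600 ± 57.5 (SD, n = 3) and 7787 ± 504 (SD, n = 3) differed 2.99-fold. The log2FC was 1.58 (SE 0.0427, limma adjusted p = 9.48e-21). Its lowest value over the alternatives was 1.39, after quantile normalization. Genes on the opposite strand share 6.21% of its exon bases in M21, and Gm42803, the one of them with a row, had at most 3.82 normalized counts.

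Pdgfrb, the receptor carried by pericytes, had 22014, 23512 and 22594 normalized counts in controls and 22851, 20397 and 21293 with dexamethasone. The groups overlapped, with dexamethasone replicate 1 inside the control range. The log2FC of -0.08 had a 95% interval of -0.16 to 0.005 (limma adjusted p = 0.0849). Count models on the recovered reads put a like value past the threshold, with -0.10 (edgeR adjusted p = 0.00555) and -0.09 (DESeq2 adjusted p = 0.0331). Leaving out dexamethasone replicate 1 gave -0.12 (limma adjusted p = 0.00222), and leaving out dexamethasone replicate 2 gave -0.041 (limma adjusted p = 0.4). For Pdgfrb the adjusted p-value ranged over the alternatives from 5.01e-08 to 0.4 and the log2FC from -0.27 to -0.04. Whether this small fall passes therefore depends on the fit.

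Because both receptors are read in the same library, their ratio does not depend on the size factor of the library. The log2 ratio of Pdgfra to Pdgfrb was -3.12, -3.15 and -3.11 in controls and -1.45, -1.47 and -1.47 with dexamethasone. It was tight within each group, with an SD of 0.0207 and 0.0106, and was higher by 1.66 in the mean with dexamethasone. Per kilobase, Pdgfra made up 5.89% ± 0.079 (SD, n = 3) of the receptor level in controls and 16.5% ± 0.1 (SD, n = 3) with dexamethasone. Pdgfrb was the more abundant receptor, at 4145 and 3927 per kilobase against 259 and 777. An exact two-sided permutation test over 3 and 3 libraries gave p = 0.1 for this ratio, the smallest value it allows, so it cannot pass a threshold of 0.05.

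The other 5 ratios within a library also had an exact permutation p = 0.1 each, and 0.1 after adjustment over the 6. The log2 ratio of Pdgfa to Pdgfb went from 3.48 ± 0.127 (SD, n = 3) to 4.92 ± 0.0989 (SD, n = 3). That of Pdgfc to Pdgfd went from 4.28 to 3.45, so the ligand of receptor alpha was lower relative to that of receptor beta. That of Pdgfa to its receptor Pdgfra, of counts not corrected for length, went from 0.59 ± 0.0165 (SD, n = 3) to -0.83 ± 0.0258 (SD, n = 3), while per kilobase Pdgfa was above Pdgfra in both groups (1254 and 259, then 1406 and 777). Relative to Pdgfrb, Cspg4 went from -1.59 to -1.08 and Rgs5 from -10.74 to -9.94. In all 6 ratios the 3 libraries of a group lay on one side of the 3 libraries of the other.

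**Figure D3:**
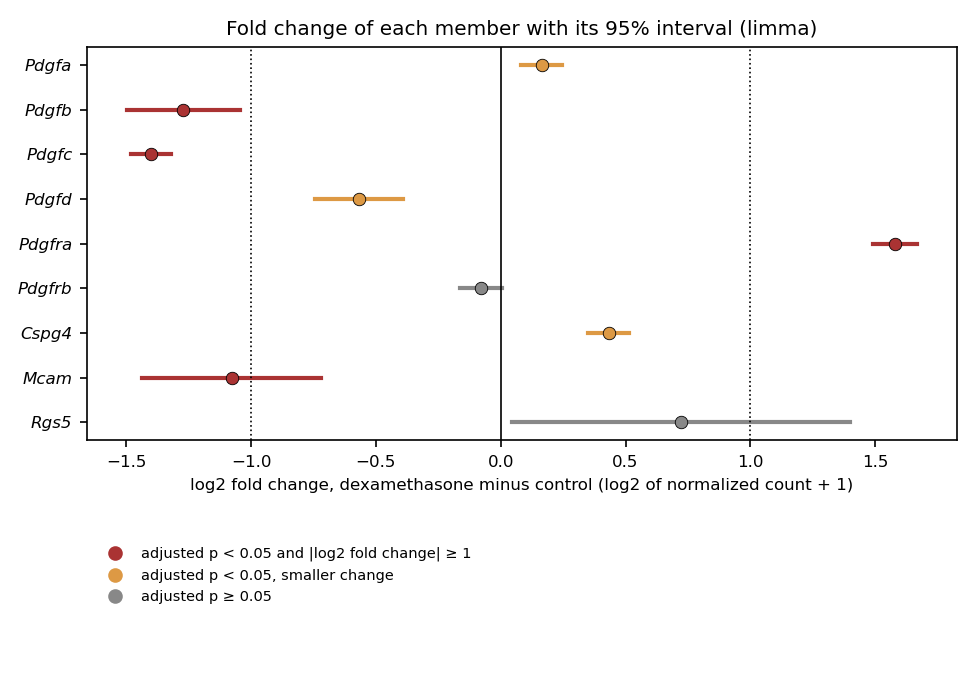
Log2 fold change, dexamethasone minus control (x axis), of each of the 9 genes (y axis) with its 95% interval from limma. Dotted lines mark the cut-off of 1 in either direction. Pdgfra (1.58) lies beyond it upward, Pdgfb, Pdgfc and Mcam lie beyond it downward, and the intervals of Mcam and Rgs5 are the widest.

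The pericyte markers did not move together. Cspg4, the membrane proteoglycan NG2, had 7269, 7514 and 7862 normalized counts in controls and 10763, 9859 and 9934 with dexamethasone. All dexamethasone libraries were higher, and Cspg4 rose by 0.43 on the log2 scale (SE 0.0398, limma adjusted p = 5.64e-10), under the cut-off of 1. Mcam, a cell adhesion molecule of endothelium and pericytes, had 131, 115 and 108 normalized counts in controls and 67.7, 45.8 and 54.7 with dexamethasone. The groups did not overlap and Mcam fell by 1.08 on the log2 scale (95% interval -1.44 to -0.72, limma adjusted p = 5.35e-06), from 42 to 143 reads per library. Without dexamethasone replicate 2 its log2FC was -0.94 and after quantile normalization -0.97, so the call at the cut-off of 1 was lost in both.

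Rgs5, a regulator of G protein signalling enriched in pericytes, had the lowest values of the 9 genes. It had 14, 12 and 14 reads in controls and 19, 19 and 21 reads with dexamethasone. The corresponding normalized counts were 12.9, 11.7 and 12.3, and 18.1, 20.7 and 24.4. The dexamethasone libraries were all higher, but the log2FC of 0.72 (95% interval 0.05 to 1.40) had a limma adjusted p = 0.0511, just above the threshold. Its adjusted p-value lay between 0.00239 and 0.154 over the alternatives.

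Per kilobase, the order of levels in the controls was Pdgfrb (4145), Pdgfc (1683), Pdgfa (1254), Cspg4 (633), Pdgfra (259), Pdgfd (139), Pdgfb (84.3), Mcam (35.3) and Rgs5 (2.71), and no neighbours overlapped between libraries. With dexamethasone it was Pdgfrb (3927), Pdgfa (1406), Cspg4 (854), Pdgfra (777), Pdgfc (638), Pdgfd (94.1), Pdgfb (34.8), Mcam (16.7) and Rgs5 (4.64). Among these neighbours, the libraries of Cspg4 and Pdgfra overlapped, at 826 to 902 and 734 to 832 per kilobase. Pdgfc dropped from the second to the fifth place and Pdgfra moved from the fifth to the fourth.

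The other genes of the PDGF pathway came from lists set by function. Of the 41 genes, all were in the table and 39 were tested. At an adjusted p-value under 0.05, 26 were higher (against 37.2% of all tested genes), 7 were lower (against 35.2%) and 6 did not pass, with a median log2FC of 0.24 against 0.001 for all tested genes. Differential expression was called for 8 of the 39, 6 upward and 2 downward, against 22.3% of all tested genes. The median was 0.13 at the same library total, a scaling that moved the median of all genes to -0.11, and 0.07 after quantile normalization, which moved it to -0.075.

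The proteases that free or mature the ligands were split. Plat, the tissue plasminogen activator that activates PDGF-C, rose by 0.52 on the log2 scale, with means of 3925 ± 199 in controls and 5621 ± 337 with dexamethasone (SD, n = 3 each; limma adjusted p = 1.52e-10). Plau, the urokinase that activates PDGF-D, fell by 1.16, with means of 2970 ± 93.8 and 1329 ± 54.8 normalized counts (SD, n = 3 each; limma adjusted p = 2.64e-17). Its groups did not overlap, and it was the only differentially expressed gene of the 5 tested, against 22.3% of all tested genes. Furin and Pcsk7, convertases of the secretory pathway, rose by 0.34 and 0.22 on the log2 scale. Pcsk6, named after its values were seen, fell by 0.755, and Pcsk5 had at most 3 reads in every library. The rise of Pcsk7 did not pass the test after quantile normalization (0.07, limma adjusted p = 0.0828). The median of the 5 tested proteases was 0.22.

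The co-receptors Lrp1 and Nrp1, large surface proteins that bind several ligands, rose by 0.45 and 0.52 on the log2 scale, with limma adjusted p-values of 9.32e-09 and 2.25e-12. Lrp1 had 133770 ± 3989 (SD, n = 3) normalized counts in controls and 182230 ± 8094 (SD, n = 3) with dexamethasone.

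Of the 20 adaptors and effectors that dock on activated PDGF receptors, 12 were higher, 4 lower and 4 did not pass, against 37.2% higher and 35.2% lower of all tested genes, with a median of 0.13 that became -0.03 after quantile normalization. Rasa1, the GTPase-activating protein that switches off Ras at receptor beta, showed the largest rise. The 4 lower were Gab1, Pik3r1, Sos2 and Stat5a, of which all but Pik3r1 are named after their values were seen. Stat5a (-0.11) no longer passed without control replicate 2 (-0.097) or 3 (-0.102) or dexamethasone replicate 2 (-0.085) or 3 (-0.08). It also did not pass without the filter on low values, without limma's trend or with replicate number as a block. Rasa1 had 6850, 6811 and 6873 normalized counts in controls and 28115, 27725 and 27667 with dexamethasone, with groups far apart. Its log2FC was 2.02 (SE 0.0332, limma adjusted p = 3.93e-25). Nck2, an adaptor of the cytoskeleton chosen here after its values were seen, was the other differentially expressed gene, with a log2FC of 1.30 (limma adjusted p = 7.69e-18). Of all tested genes, 22.3% were differentially expressed. Pik3r1, the regulatory subunit of PI3 kinase, fell by 0.79 on the log2 scale (limma adjusted p = 3.33e-16), and Crk, an adaptor protein, rose by 0.35 (limma adjusted p = 2.97e-09).

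Of the 12 phosphatases, ubiquitin ligases and inhibitors that restrain receptor signalling, 9 were higher (against 37.2% of all tested genes), 1 was lower (against 35.2%) and 2 did not pass (Socs1 and Socs3, named after their values were seen), with a median of 0.61. Socs3 passed downward at the same library total (-0.12) and after quantile normalization (-0.16). The 4 differentially expressed upward, against 11.7% of all tested genes, were Sh2b3, Cblb, Ptprj and Ptpn1, at 2.09, 1.825, 1.625 and 1.02. The last 3 are named after their values were seen. Ptpn1 fell under the cut-off at the same library total (0.91), after quantile normalization (0.83), with edgeR (0.998) and without dexamethasone replicate 1 (0.98). Sh2b3, an adaptor that dampens kinase receptors, had 3509, 3465 and 3596 normalized counts in controls and 15794, 14502 and 14636 with dexamethasone (limma adjusted p = 2.99e-24). Cblb is a ubiquitin ligase, and Ptprj and Ptpn1 are tyrosine phosphatases that act on PDGF receptors. The ligase Cbl rose by 0.51 on the log2 scale and the phosphatase Ptpn11, which also transmits signal, by 0.33. Grb10, an adaptor that inhibits receptor kinases and is encoded by an imprinted gene, fell by 1.09 on the log2 scale, with means of 37830 ± 1262 and 17796 ± 679 normalized counts (SD, n = 3 each; limma adjusted p = 2.24e-18). Grb10 alone was called downward, against 10.6% of all tested genes.

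**Figure D4:**
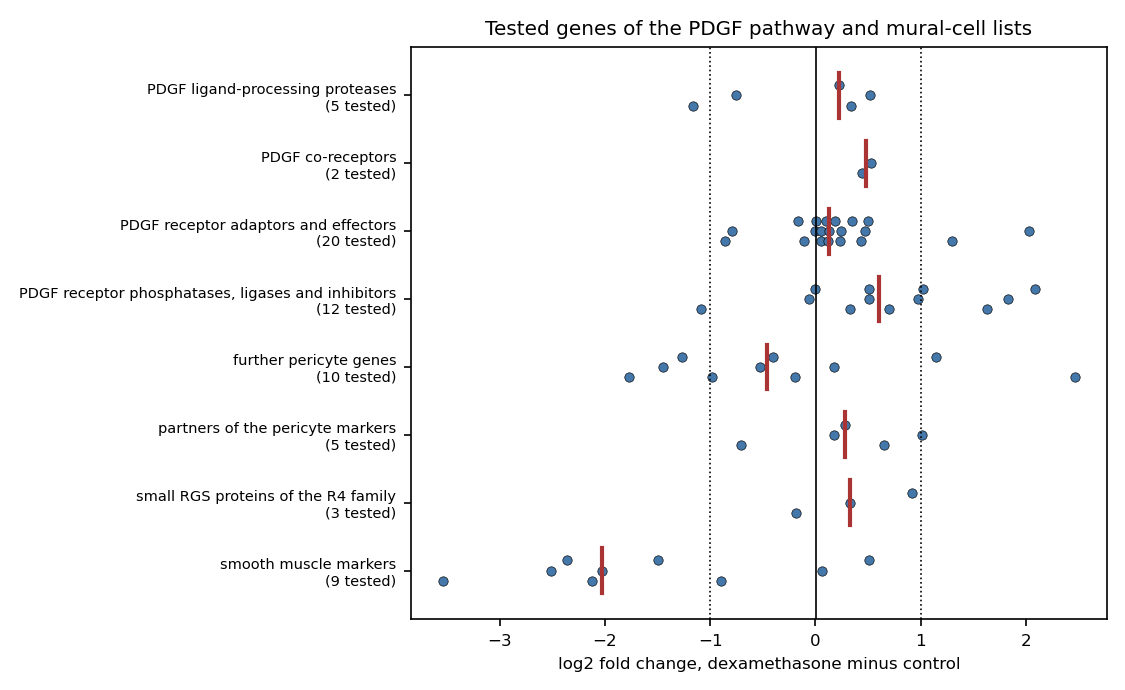
Log2 fold change, dexamethasone minus control (x axis), of each tested gene (point) in 8 lists (y axis), with list medians in red, the median of all tested genes as the solid line and the cut-off of 1 in either direction dotted. Smooth muscle markers sit lowest, with a median of -2.03, and the phosphatases, ligases and inhibitors highest, with a median of 0.61.

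Further pericyte genes were uneven as well. Of 18 genes, 15 had a row and 10 were tested, with 3 higher, 6 lower and 1 that did not pass, against 37.2% higher and 35.2% lower of all tested genes, and a median log2FC of -0.46. Ednra, the endothelin receptor, had 3130, 3414 and 3338 normalized counts in controls and 1000, 895 and 1012 with dexamethasone. The groups did not overlap and the log2FC was -1.77 (SE 0.0518, limma adjusted p = 5.28e-20). Anpep, an aminopeptidase of pericytes and other stromal cells, fell by 1.45 on the log2 scale, and Tbx18, a transcription factor of mural cells, by 0.525. Notch3, the Notch receptor of mural cells and named after its values were seen, fell by 1.27 on the log2 scale. Ano1, a chloride channel, rose by 2.47 on the log2 scale, with means of 15.4 ± 4.6 and 87.8 ± 14.6 normalized counts (SD, n = 3 each; limma adjusted p = 4.42e-09). Cox4i2, a subunit of cytochrome c oxidase also named after its values were seen, was the other one called upward, as were 11.7% of all tested genes. Its log2FC was 1.15 (limma adjusted p = 0.0105), from 7 to 29 reads per library. That call was lost with a pseudocount of 5 (0.89) and without control replicate 3 (0.895) or dexamethasone replicate 1 (0.976). Des, which encodes desmin and is also named after its values were seen, was the remaining gene that passed upward, at 0.17 (limma adjusted p = 0.0257). It did not pass at the same library total (0.06), after quantile normalization (0.115), without limma's trend or with DESeq2. Nor did it without control replicate 3 (0.12), dexamethasone replicate 1 (0.15) or dexamethasone replicate 3 (0.17). Abcc9, the partner of Kcnj8 in the potassium channel of pericytes, had at most 3 reads in every library.

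The partners of the pericyte markers included the type VI collagens that Cspg4 binds. Col6a3 averaged 211250 ± 4776 normalized counts in controls and 425990 ± 20720 with dexamethasone (SD, n = 3 each). It rose by 1.01 on the log2 scale (limma adjusted p = 1.72e-14), a value that fell under the cut-off at the same library total (0.90), after quantile normalization (0.81), with edgeR (0.985) and without control replicate 1 (0.994) or dexamethasone replicate 1 (0.97). Col6a1 and Col6a2 rose by 0.65 and 0.18 on the log2 scale, the latter to 0.06 at the same library total (limma adjusted p = 0.109). Of the 5 tested partners, 4 were higher (against 37.2% of all tested genes), with a median of 0.28. The laminin chain Lama4, named after its values were seen, was lower, as were 35.2% of all tested genes. Of the 9 small RGS relatives of Rgs5, 3 were tested and had a median of 0.33. Rgs2 and Rgs4 rose by 0.92 and 0.33 on the log2 scale and Rgs3 fell by 0.18, with limma adjusted p-values of 1e-06, 0.00399 and 0.00149, and Rgs4 did not pass at the same library total (0.21, limma adjusted p = 0.0544).

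Markers of the neighbouring cell types went in different directions, and their part in these results was not tested. Of all tested genes, 37.2% were higher and 35.2% lower at an adjusted p-value under 0.05. Of the 10 smooth muscle markers 9 were tested, with 1 higher, 7 lower, and a median log2FC of -2.03. The largest fall was that of Acta2, smooth muscle actin, with means of 144920 ± 3876 and 12449 ± 493.5 normalized counts (SD, n = 3 each) and a log2FC of -3.54 (limma adjusted p = 3.8e-28). Mylk, the myosin light chain kinase, fell by 1.49 on the log2 scale and Smtn, smoothelin, rose by 0.51. The summed level of the 10 smooth muscle markers was 174200 to 183500 normalized counts in controls and 26860 to 28780 with dexamethasone. Of it, Acta2 alone gave 140690 to 148310 in controls and 11939 to 12924 with dexamethasone. Myh11, the defining myosin of smooth muscle and named after its values were seen, had at most 53.2 normalized counts. Of 12 endothelial markers 10 had a row and 6 were tested, with 3 higher and 1 lower and a median of 0.27. The summed level of the 10 was 604 to 722 in controls and 369 to 418 with dexamethasone, a difference carried by Ptprb. Ptprb was left out of a second sum after its values were seen. That sum, of the other 9, was 119 to 151 in controls and 165 to 203 with dexamethasone. Of it, Plvap alone gave 60.6 to 80.2 in controls and 80.2 to 108 with dexamethasone. Ptprb fell by 1.25 on the log2 scale, and Plvap, Esam and Pecam1 (the last named after its values were seen) rose by 0.42, 1.20 and 0.74. Plvap no longer passed without control replicate 1 (0.42) or 3 (0.32) or dexamethasone replicate 1 (0.41) or 2 (0.315). It also did not pass at the same library total (0.305), without the filter on low values, without limma's trend or with DESeq2. Pecam1 no longer passed without control replicate 1 (0.47) or dexamethasone replicate 1 (0.65) or 2 (0.68). The same held for Pecam1 at the same library total (0.635), without the filter, without limma's trend, with edgeR or with DESeq2. Of 8 megakaryocyte and platelet markers, cells known as a source of PDGF, 2 were tested. Gp1ba fell by 1.68 on the log2 scale, Itga2b had a log2FC of 0.10 (limma adjusted p = 0.262), and the summed level was 667 to 736 and 514 to 574.

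By Euclidean distance over the 6 libraries, on log2 values centred on the control mean, the genes closest to Pdgfra among 12020 genes with a mean of at least 100 were Jun, Rangap1 and Lsm2. Their distances were 0.0543, 0.0557 and 0.0732 and their log2 fold changes 1.58, 1.585 and 1.596. The genes closest to Pdgfrb were Prkcsh, Gas8 and Arv1, at distances of 0.0237, 0.0287 and 0.0357. This is a description of 2 groups of libraries and says nothing about shared control.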

How the data were processed

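Per the labels, libraries were made with a stranded mRNA kit. The submitters' processing notes name STAR 2.7.10a, DESeq2 1.36.0 and build GRCm39, and per the methods STAR gave reads per gene and DESeq2 the normalization. What the authors deposited is therefore a signal, reads over 1 size factor for each library, here called normalized counts. Annotation release and strand setting are not given in the sources used here. GENCODE M21 (GRCm38) supplied symbols (28087 identifiers), exon lengths and overlaps only. Dexamethasone columns were matched to labels by treatment and number, and 0 columns were left out.

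Log2(normalized count + 1) was compared with limma 3.58.1 (lmFit, eBayes with trend; R 4.3.3), keeping genes whose mean reached 10, with Benjamini-Hochberg adjustment, after a test on simulated data. Reads were recovered by dividing each column by its lowest positive value. Alternatives were edgeR 4.0.16 and DESeq2 1.42.0 on those reads, pseudocounts of 0.5 and 5, no filter or a mean of at least 100, equal library totals, quantile normalization, no eBayes trend, a replicate block and each library left out. The genes, lists and tests were chosen with earlier results of these data known. Named were the 10 genes; of the pathway and mural lists, the 3 tested genes with the highest mean and the largest differentially expressed rise and fall; of cell type lists, the 3 with the highest mean; and the 3 genes closest to each receptor. Most others are marked as named after their values were seen. Bglap, Cdh5, Tie1, Pcsk5, Abcc9 and the genes that share exon bases with a listed gene are also outside this rule and carry no mark. One gene that this rule names is not reported here.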

Additional observations from a re-analysis of the deposited data

How the results depend on the processing

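Under 16 alternatives, Pdgfb, Pdgfc, Pdgfd, Pdgfra and Cspg4 kept their direction and their calls. Without the eBayes trend the limma adjusted p-values of Pdgfra and Pdgfc were 9.26e-06 and 7.93e-06, their highest over the alternatives. Over the 9 genes 130 values kept them, 8 newly passed, 3 were weaker and 1 turned. Of the weaker ones, Mcam lost only the fold cut-off, after quantile normalization and without dexamethasone replicate 2. Pdgfa at the same library total no longer passed the test. Pdgfa went to 0.05 at the same library total and -0.002 after quantile normalization. Pdgfrb passed the test at the same total (-0.19), after quantile normalization (-0.27), with edgeR (-0.10) and with DESeq2 (-0.087), and lay between -0.123 and -0.041 with any one library removed. Mcam was -0.97 after quantile normalization and -1.22 to -0.943 with any one library removed, the latter without dexamethasone replicate 2. Rgs5 passed with a pseudocount of 5 (0.59), after quantile normalization (0.83) and without the trend (0.72). Mcam and Rgs5 gave no value at a mean of at least 100. Among the other named genes, Itgav (0.05) went to -0.066 at the same total and -0.016 after quantile normalization, and Itga2b to -0.012 at the same total. The cause was not tested.

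By construction, 12645 genes and 7 of the 9 members passed at an adjusted p-value alone, and 2170 genes were called at a mean of at least 100, against 3894. Replicate numbers did not pair the libraries (correlations of same-numbered deviations -0.0999, -0.105 and -0.0199), and the replicate block gave 3897 genes and the same calls for all 9 members. Rgs5 and Abcc9 rest on few reads, at most 21 and 3 per library.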

Other observations

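Markers of stromal and skeletal cells, among which receptor alpha is usual, went in several directions. The counts of higher and lower genes in this section compare with 37.2% and 35.2% of all tested genes. Of 12 skeletal stromal and progenitor markers 10 were tested, with 4 higher and 4 lower and a median log2FC of 0.05, which was -0.06 at the same library total. Kitl, the ligand of Kit, rose by 2.89 on the log2 scale, with means of 1949 ± 15.3 in controls and 14444 ± 79.2 with dexamethasone (SD, n = 3 each; limma adjusted p = 2.12e-27). Prrx1, a transcription factor of limb mesenchyme, fell by 0.86 on the log2 scale, and Itgav had a log2FC of 0.05 (limma adjusted p = 0.236). Of the 8 osteoblast markers, 2 were higher and 6 lower, with a median of -1.81. Spp1, osteopontin, rose by 5.25 on the log2 scale while Col1a1 and Runx2 fell by 1.88 and 1.75. Of 5 osteocyte markers 3 were tested and 2 were higher, with a median of 0.68. Dmp1, a matrix protein of osteocytes, rose by 7.16 on the log2 scale, with means of 38.5 ± 2.66 and 5639 ± 326 (SD, n = 3 each). Pdpn rose by 0.68, and Mepe had a log2FC of -0.77 (limma adjusted p = 0.0749). Mepe passed downward with edgeR (-0.91, edgeR adjusted p = 0.0402) and at the same library total (-0.87, limma adjusted p = 0.046).

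Of 6 pan-hematopoietic markers 5 were tested, with 2 higher and 2 lower and a median of 0.46, and a summed level of 106 to 140 in controls and 789 to 842 with dexamethasone. Cd53 and Itgb2 rose by 4.11 and 3.20 on the log2 scale. Coro1a fell by 1.77, from 1 to 25 reads per library, and did not pass without limma's trend (limma adjusted p = 0.0634). Ptprc, named after its values were seen, had at most 5 reads. Of the Schwann and glial markers, S100b fell by 2.004 on the log2 scale and Mbp rose by 0.99. Of 6 skeletal muscle markers 3 were tested, with a median of 0.33. Acta1 fell by 1.56 on the log2 scale, and Tnnt3 and Mylpf had log2 fold changes of 0.82 and 0.33 (limma adjusted p = 0.0902 and 0.303). Tnnt3 passed upward without control replicate 1 (1.12) or dexamethasone replicate 2 (1.22).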
